A study of Mus musculus with 2 samples.

Results

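The dual-specificity MAP kinase phosphatases were followed in mouse tendon cells under mechanical shear. Genes were included by name: a member was any of Dusp1, Dusp4, Dusp5, Dusp6, Dusp10, Dusp14 and Dusp16 that was the single gene symbol of a spot in the platform annotation. Of these 7 genes, 3 had such a spot, Dusp10, Dusp14 and Dusp16, out of 10793 named genes with a value on at least 1 array. Dusp1, Dusp4, Dusp5 and Dusp6 were not analysed here. The values therefore cover none of the listed phosphatases that act mainly on ERK or that are best known as immediate early genes.

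The study asked what mechanical shear does to flexor tendon cells. Pooled sheared cells at 6 h were compared with pooled control cells at 6 h on one dual-colour spotted array, and cells sheared at 50 rpm for 12 h were compared with control tenocytes at 12 h on another. Tenocytes are the fibroblast-like cells of tendon. The labels give no strain, age or number of mice, no speed at 6 h and no pooling at 12 h. Sheared RNA carried Cy5 and control RNA carried Cy3 on both arrays, with no dye swap. There was 1 array per time point, so no difference could be tested, no p-value is given, and "higher" and "lower" describe these arrays alone.

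MAP kinases (ERK, JNK and p38) are switched on when a threonine and a tyrosine of their activation loop are both phosphorylated. Dual-specificity phosphatases remove both phosphates and so switch the kinases off, and many of their genes are themselves induced by MAP kinase signalling, which closes a negative feedback loop. In fibroblasts, MAP kinases are among the pathways that respond to mechanical load and to stress. Dusp10 (also called MKP5) and Dusp16 (MKP7) belong to the group that prefers JNK and p38. Dusp14 (MKP6) is a small atypical member that lacks the amino-terminal kinase-binding domain of the others.

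The regulatory windows of the 3 measured genes are shown so that Dusp10 and Dusp16, the 2 phosphatases of JNK and p38 that lay on opposite sides of 0 at 6 h, can be set side by side with Dusp14. Each window runs from 250 bases before to 50 bases after a RefSeq transcript start (GRCm38.p6), and it is the 1 window listed for that gene. Dusp10 is on the plus strand at chr1:184034131-184034430, Dusp14 on the minus strand at chr11:84068308-84068607 and Dusp16 on the minus strand at chr6:134792579-134792878. The Dusp10 window lies at the outer start of its gene, at 184034381. The Dusp14 and Dusp16 genes extend further upstream, to 84069256 and 134807063, so their windows lie at starts inside the gene. The sequence at their outer starts was not searched. Capitals mark every match, on either strand, to the motifs searched.
Dusp10: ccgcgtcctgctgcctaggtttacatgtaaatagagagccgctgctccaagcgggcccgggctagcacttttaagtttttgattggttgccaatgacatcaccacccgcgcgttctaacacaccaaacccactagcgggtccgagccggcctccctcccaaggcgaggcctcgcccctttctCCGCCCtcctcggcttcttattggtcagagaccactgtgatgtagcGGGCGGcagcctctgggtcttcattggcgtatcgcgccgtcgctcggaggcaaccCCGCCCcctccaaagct
Dusp14: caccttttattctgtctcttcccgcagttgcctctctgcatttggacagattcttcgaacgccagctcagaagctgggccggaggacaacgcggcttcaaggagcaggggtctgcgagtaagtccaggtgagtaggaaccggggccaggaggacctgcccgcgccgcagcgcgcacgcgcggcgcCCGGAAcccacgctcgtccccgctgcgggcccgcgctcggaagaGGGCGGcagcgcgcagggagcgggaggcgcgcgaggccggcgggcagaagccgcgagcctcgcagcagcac
Dusp16: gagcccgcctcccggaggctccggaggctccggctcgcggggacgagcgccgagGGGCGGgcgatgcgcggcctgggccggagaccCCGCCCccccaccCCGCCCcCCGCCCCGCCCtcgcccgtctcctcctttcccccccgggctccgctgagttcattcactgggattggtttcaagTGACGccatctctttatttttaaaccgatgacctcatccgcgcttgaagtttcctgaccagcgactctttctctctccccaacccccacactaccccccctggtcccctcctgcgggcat
The motifs were the cyclic AMP response element TGACGTCA, its first letters TGACG, which lie within the full element, the AP-1 element TGANTCA, the ETS core CCGGAA and the GC box GGGCGG. The GC box was present 3 times in the Dusp10 window, 1 time in the Dusp14 window and 5 times in the Dusp16 window. Of all 32851 windows listed, 35.7% hold it at least 1 time. The share that hold it several times was not counted. The Dusp16 window held 1 TGACG, and 20.8% of all windows held at least 1. The Dusp14 window held 1 CCGGAA, and 14.9% of all windows held at least 1. The full TGACGTCA, held by 1.79% of windows, and TGANTCA, held by 7.81%, were not in these 3 windows. These matches describe the letters of the windows only.

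All values are log2 ratios, likely of sheared over control, after subtracting each array's median over all spots. The base of 2 is assumed, and the direction follows the labelled dyes and the usual red-over-green convention. Were the ratio stored the other way, every higher value would be a lower one. The medians subtracted were -0.323 at 6 h (39776 spots measured) and -0.479 at 12 h (41717 spots measured). The named genes had medians of -0.11 at 6 h (10348 genes) and -0.14 at 12 h (10733 genes). The only available error is the SD between different spots of the same gene, pooled over genes: 0.738 log2 at 6 h (5396 genes) and 0.855 at 12 h (5579 genes). It covers spots and clones, not cultures. Because the table holds ratios alone, the level of no tenocyte marker could be checked.

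At 6 h the measured phosphatases split. Dusp14 stood higher in sheared cells, at log2 1.25 or 2.38-fold, on 1 spot. Dusp10, the JNK and p38 phosphatase, stood at 0.83 or 1.78-fold, also on 1 spot and 0.17 log2 short of the 2-fold line. Dusp16, the other phosphatase that prefers JNK and p38, stood lower, at -2.51 or 5.70-fold lower, on the 1 of its 2 spots that was measured at this time. The value of Dusp14 lay above 97.2% of the named genes of the array and that of Dusp10 above 89.8%, whereas that of Dusp16 lay above only 2.74%.

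Past the 2-fold line at 6 h lay 1 of the 3 genes on the higher side, where 6.19% of all named genes lay, and 1 on the lower side, where 18.9% lay. Past 1.5-fold lay 2 on the higher side (18.2% of all genes) and 1 on the lower (31.3%), and past 3-fold none on the higher side (1.3%) and Dusp16 alone on the lower (8.65%). The median of the 3 was 0.83, that is, the value of Dusp10, beside -0.11 for all genes. With 3 genes, counts and medians say little beyond the single values. Dusp14 exceeded 0 by more than the pooled spot SD of 0.738, Dusp10 by little more than it, and Dusp16 lay further from 0 than either. Without centring, Dusp14 stood at 0.93 and no member was 2-fold higher.

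Dusp14 had a further spot whose annotation also names Colgalt1, which modifies collagen with galactose. That spot was left out of the gene value, since its signal cannot be assigned to one gene. It read 0.99 at 6 h and 0.51 at 12 h, beside 1.25 at 6 h and 0.50 at 12 h on the spot of Dusp14 alone. The 2 spots differed by 0.26 log2 at 6 h and by 0.003 log2 at 12 h, within the pooled spot SD.

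At 12 h Dusp10 and Dusp14 stood nearer to 0. Dusp14 read 0.50 or 1.42-fold higher and Dusp10 read 0.01, close to no difference between sheared and control cells. Dusp16 had values on both of its spots, -0.63 and -1.85, with a median of -1.24 (spot SD 0.86), or 2.37-fold lower. Of the 3 genes, none was at least 2-fold higher, beside 14.5% of all named genes, and 1 was at least 2-fold lower, beside 20.5%. Past 1.5-fold none was higher (24.4% of all genes) and 1 lower (33.1%), and past 3-fold none was higher (5.74%) or lower (9.75%). Dusp14 now lay above 73.2% of named genes, Dusp10 above 55.9% and Dusp16 above 15.1%.

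**Figure D1:**
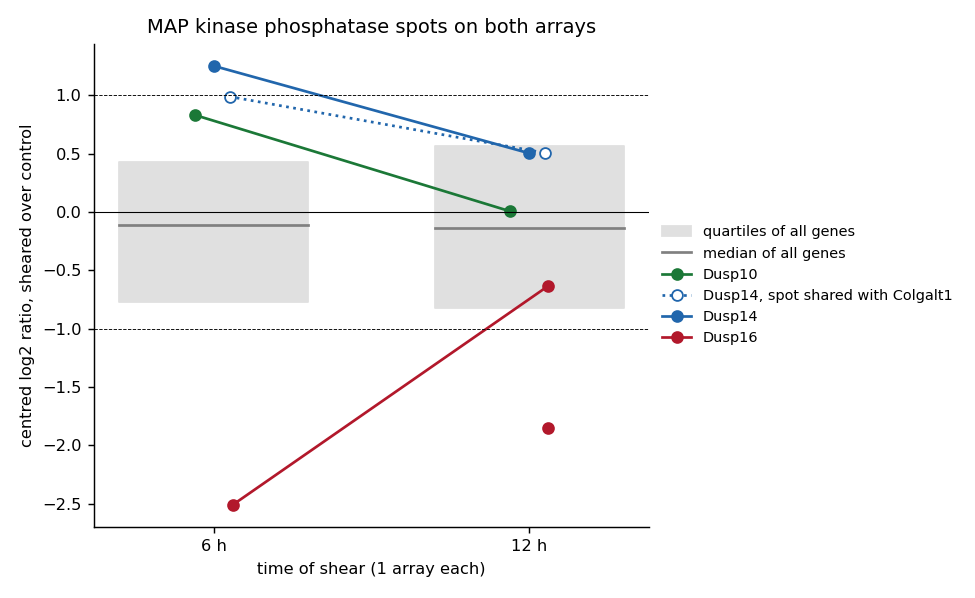
Centred log2 ratios of sheared over control (vertical axis) at 6 h and 12 h (horizontal axis, 1 array each) for every spot of Dusp10, Dusp14 and Dusp16. Lines join the same spot, the open symbol is the spot shared with Colgalt1, grey boxes and lines are the quartiles and median of all named genes, and dashed lines mark 2-fold. Dusp14 and Dusp10 lie above the grey box at 6 h and within it at 12 h, and the Dusp16 spot measured at both times stands at -2.51 and then at -0.63.

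The 12 h minus 6 h difference was negative for Dusp10 and Dusp14 and positive for Dusp16, each being drawn nearer to 0. It was -0.83 for Dusp10 and -0.75 for Dusp14. Over the 10288 genes on both arrays the median difference was 0.12, and 10.6% of the other genes had a lower difference than Dusp10 and 12.5% a lower one than Dusp14. The pooled SD of this difference between spots of one gene was 0.740 log2 (5340 genes), so both differences were about as large as the disagreement between spots of a single gene. With no second array at either time, neither can be told from array-to-array variation. The labels also give a speed at 12 h only and pooling at 6 h only, so time cannot be told apart from these.

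For Dusp16 the size of the difference depended on which spots were set against each other. From the gene medians it was 1.27, which sets 2 spots at 12 h against 1 at 6 h. Of the other genes, 93.0% had a lower difference than this. On the spot measured at both times the difference was 1.88, from the values -2.51 at 6 h and -0.63 at 12 h. Both values exceeded the pooled spot SD of 0.740 log2 for this difference. Neither can be told from array-to-array variation, with 1 array per time. With spots present on both arrays only, and each array centred on those spots, Dusp16 stood at -0.69 at 12 h and was no longer 2-fold lower. The second spot of Dusp16, at -1.85, thus carries the 2-fold call at 12 h.

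Genes with the most similar pair of values were looked for among the 5345 genes with at least 2 spots on each array, by Euclidean distance over the 2 arrays. Nearest to Dusp10 were Zfp830 (0.81 at 6 h, 0.01 at 12 h) and Eid1 (0.79 and 0.01). Nearest to Dusp14 were Lrrc59 (1.25 and 0.52) and Klhl21 (1.24 and 0.52), and nearest to Dusp16 were Ehf (-2.55 and -1.09) and Cd177 (-2.58 and -1.09). The Dusp16 values used were its gene medians, from 1 spot at 6 h and 2 spots at 12 h. Its spot measured at both times read -0.63 at 12 h, and genes near that pair were not looked for. Of the 5345 genes compared, 49 lay within 0.25 log2 of Dusp10, 17 within that distance of Dusp14 and 5 of Dusp16. Over so few arrays such closeness says little about a gene.

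The rest of the dual-specificity family gave no gene value as high as those of Dusp10 and Dusp14 at 6 h. Of 22 further family genes listed, 9 were measured, and all 9 are given here. None was at least 2-fold higher on either array and 4 were at least 2-fold lower on each, with medians of -0.54 at 6 h and -0.86 at 12 h. Of all named genes, 6.19% lay past 2-fold on the higher side and 18.9% on the lower side at 6 h, and 14.5% and 20.5% at 12 h. Ssh1, a slingshot phosphatase that activates the actin-severing protein cofilin, stood at -1.67 at 6 h (spot SD 0.24) and -3.30 at 12 h (spot SD 0.21). Dusp13 stood at -2.84 and -1.61, and Dusp3, a small phosphatase of ERK and JNK, at -1.16 and 0.14, each on 1 spot. Of these 3 genes Ssh1 alone had a second spot, and its spots lay close together on both arrays.

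In Dusp7 and Dusp26 the spots disagreed. Dusp7, a cytoplasmic phosphatase of ERK, had a median of -1.14 at 6 h and -1.66 at 12 h. One of its spots read -0.25 and -0.13, the other -2.03 and -3.18. Dusp26 had a median of 0.03 at 6 h, from spots at 1.15 and -1.10, and -1.26 at 12 h, from spots at -1.02 and -1.51. One spot of Dusp26 alone therefore stood near the level of Dusp14 at 6 h.

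The remaining 4 genes stayed within 2-fold on both arrays. Dusp9, which acts on ERK, stood at -0.39 at 6 h (spots at 0.16 and -0.94) and 0.07 at 12 h, and Dusp19 at -0.54 and -0.75. Dusp23 stood at 0.09 and -0.86. Styx, a relative without catalytic activity, stood at -0.02 and -0.26. At 12 h, 6 of the 9 further family genes had a lower value than at 6 h and 3 a higher one, with a median difference of -0.24.

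**Figure D2:**
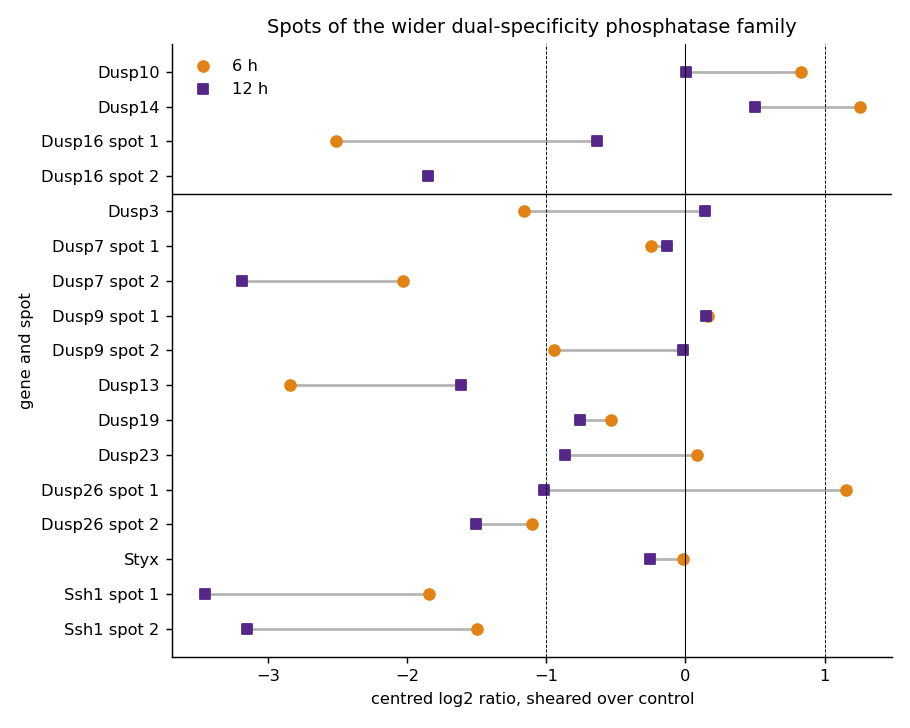
Centred log2 ratios of sheared over control (horizontal axis) for each spot (vertical axis) of Dusp10, Dusp14 and Dusp16, above the line, and of the 9 further family genes, below it. Circles are 6 h, squares are 12 h and dashed lines mark 2-fold. Most spots lie left of 0, and the 3 rightmost values at 6 h are those of Dusp14 (1.25), 1 of the 2 Dusp26 spots (1.15) and Dusp10 (0.83).

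The pathway lists that follow are to be read beside the same all-gene shares, 6.19% higher and 18.9% lower at 6 h and 14.5% higher and 20.5% lower at 12 h. With lists this short, a difference of 1 or 2 genes from those shares is no result. Other phosphatases of MAP kinases were measured for 5 of 8 genes. Ppp2cb and Ppp2ca, the catalytic subunits of protein phosphatase 2A, stood at 0.74 and 0.45 at 6 h and at 0.65 and 0.18 at 12 h. Ppm1d, a p53-induced phosphatase that acts on p38, stood at 0.43 at 6 h and -0.05 at 12 h, and Ptprr, a tyrosine phosphatase that binds MAP kinases, at -1.54 (spot SD 1.94) and -1.10 (spot SD 0.85). None of the 5 was 2-fold higher on either array and Ptprr alone was 2-fold lower.

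The kinases that these phosphatases switch off were measured for 7 of 14 genes, none of them 2-fold higher and 2 of them 2-fold lower on each array. Mapk9, which encodes a JNK, stood at -0.68 at 6 h and -1.03 at 12 h on 1 spot. Mapk13, which encodes a p38 kinase, stood at -1.07 on 1 spot at 6 h and at -0.11 on 2 spots at 12 h. Mapk7 (ERK5) stood at 0.46 (spot SD 0.65) and 0.71 (spot SD 1.12). The MAP kinase-like Nlk stood at -1.61 (spot SD 1.14) and -1.78 (spot SD 2.54). The transcripts say nothing of kinase activity, which depends on phosphorylation.

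Upstream of them, 15 of 26 MAP kinase kinases and their activators were measured, of which 4 lay past 2-fold on the lower side and 1 on the higher side at 6 h, and 5 and 1 at 12 h. The higher one was Map2k3, which activates p38, at 1.52 at 6 h (spot SD 0.20) and 1.28 at 12 h (spot SD 0.15). Map3k2 stood at -1.39 and -1.90, and Mos at -3.44 and -1.15 on 1 spot. Braf, an activator of the ERK branch, stood at -1.22 (spot SD 1.08) and -1.23 (spot SD 1.31). Of 9 scaffold genes measured, 1 was higher and 3 lower at 6 h and 2 higher and 3 lower at 12 h. They included Ksr1, a scaffold of the ERK branch, at 1.08 and 1.52, and Spag9, a JNK scaffold, at -1.02 and -1.83. Tab2 stood at -1.22 and -1.56 on 1 spot per array, and Mapk8ip2 at -3.81 (spot SD 2.50) and -0.44.

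Downstream, kinases activated by MAP kinases were measured for 8 of 11 genes, with none 2-fold higher and 2 lower on each array. These were Rps6ka5 (MSK1), at -3.30 at 6 h and -7.09 at 12 h, and Rps6ka3 (RSK2), at -2.12 and -3.82. Each had 1 spot per array, but not always the same spot. With spots on both arrays only, 1 gene of the list was lower on each array. The values of 1 of these 2 genes at 6 h and 12 h thus come from different spots. Mknk1 stood at 0.34 and 0.53 on 1 spot per array, and Mknk2 at 0.69 and 0.07.

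Of the transcripts that ERK signalling is known to induce, 10 were measured. At 6 h, 5 of them were at least 2-fold higher, beside 6.19% of all genes, and 1 was lower, beside 18.9%, with a list median of 1.20. At 12 h, 1 was higher (14.5% of all genes) and 1 lower (20.5%), with a list median of 0.44. Fosl1, an AP-1 subunit, stood at 2.63 and 0.83 on 1 spot, and Myc at 2.33 (spot SD 0.23) and 0.78 (spot SD 0.22). Ier3, an early response gene, stood at 1.84 and 0.92, and the receptor Epha2 went the other way in time, at 0.996 and 1.90 on 1 spot. The 12 h minus 6 h difference was negative for 8 of the 10, with a median of -0.79. This list overlaps early genes already known to be high on the 6 h array, so its direction is not independent evidence.

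Other feedback inhibitors of the Ras and ERK pathway did not share one direction. Of 9 measured, 2 were at least 2-fold higher and 3 lower at 6 h, and 2 higher and 4 lower at 12 h, with medians of -0.52 and -0.99. Pebp1, which binds Raf, stood at 1.03 at 6 h (spot SD 0.27) and 1.97 at 12 h (spot SD 0.23). Spred2 stood at -1.06 and -1.74, and Il17rd at -3.18 and -1.25, each on 1 spot per array. Nf1, which inactivates Ras, stood at -1.38 (spot SD 0.96) and -1.38 (spot SD 0.32). Of 7 transcription factors and coactivators that act on early genes, none was 2-fold higher and 1 was lower on both arrays. This was the coactivator Crebbp, at -1.79 (spot SD 0.27) and -1.76 (spot SD 1.91). Creb1 stood at -0.98 and -0.52, Elk4 at 0.54 and 0.76 and Srf at 0.69 and -0.75, each on 1 spot per array.

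**Figure D3:**
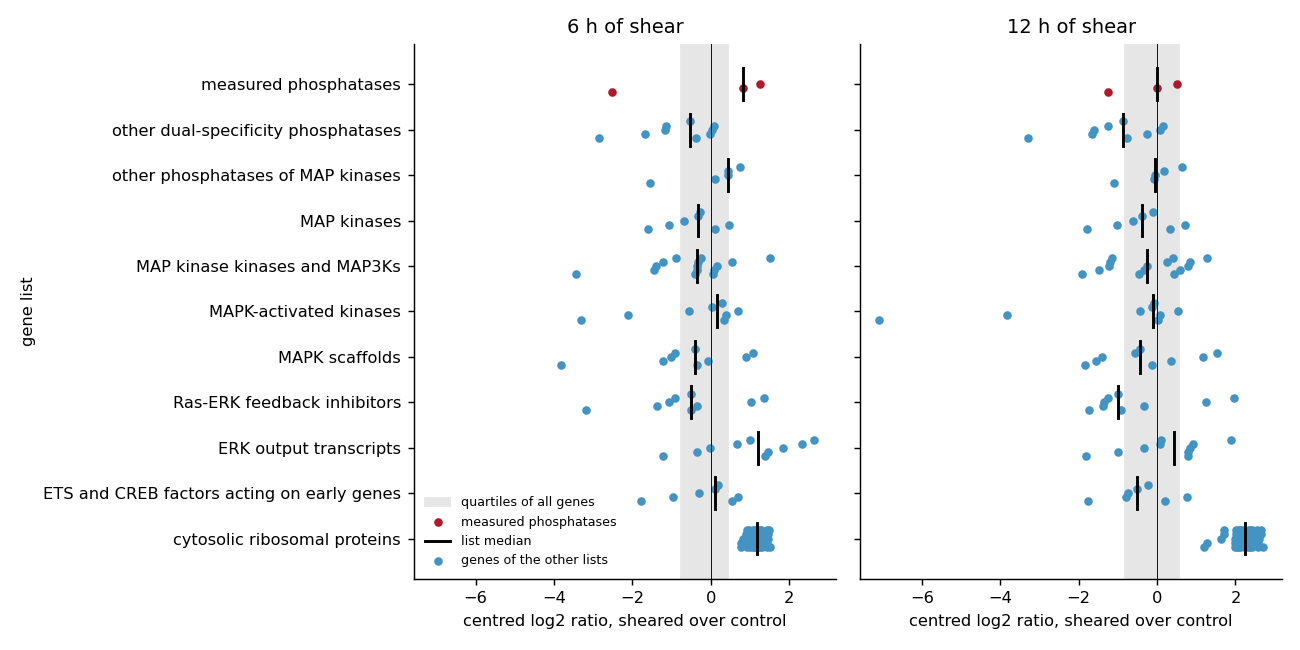
Centred log2 ratios of sheared over control (horizontal axis, left panel 6 h, right panel 12 h) for the genes of each list (vertical axis). Points are genes, black bars are list medians and the grey band spans the quartiles of all named genes. The measured phosphatases have medians of 0.83 at 6 h and 0.01 at 12 h, transcripts of ERK output 1.20 and 0.44, and ribosomal proteins 1.17 and 2.24.

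Beside these values, 44 of 56 measured genes of cytosolic ribosomal proteins were at least 2-fold higher at 6 h and all 56 at 12 h, with medians of 1.17 at 6 h and 2.24 at 12 h, and examples such as Rps29 (1.28 and 2.71), Rpl37 (1.28 and 2.65), Rps18 (1.43 and 2.55) and Rps12 (1.48 and 2.43). Dusp14 at 6 h, at 1.25, stood near that median and below the highest ribosomal value of 1.5. At 12 h Dusp14, Dusp10 and Dusp16 all stood below the lowest ribosomal value of 1.19. The part of this array-wide pattern in the phosphatase values was not tested. Markers of other cell types had medians at 6 h and 12 h of 0.39 and 0.46 for leukocytes (7 genes), -0.63 and -0.56 for endothelium (5 genes), 0.23 and 0.06 for skeletal muscle (5 genes) and -0.69 and -0.36 for epithelium (6 genes), and 7 tendon markers had medians of 0.11 and -0.05. Of the 7 leukocyte markers, 0 were at least 2-fold higher at 6 h (6.19% of all genes) and 2 lower (18.9%). At 12 h, 3 were higher (14.5% of all genes) and 2 lower (20.5%). The part of these markers in the phosphatase values was not tested. In such bulk RNA, fewer cells of a type and less RNA per cell cannot be told apart.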

How the data were processed

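The 2 arrays, 1 per time point, were used as deposited: the authors' table holds 1 log2 ratio per spot and array (42624 spots), with the base of the logarithm and the direction assumed here. Sources used here do not give scanner, background correction, normalization or spot filters, and spot brightness was not used, so signal over background is unknown. The median of all spots was subtracted from each array. Gene names came from GEO's platform annotation, updated by gene ID from RefSeq (GRCm38.p6), and 21703 spots had exactly 1 symbol. A gene's value is the median of its single-symbol spots, and a gene counted as higher or lower from 2-fold. With 1 array per time no test was possible. The members and the 10 pathway and 5 marker lists were chosen with earlier results of these data known. Named genes are all members, the 4 genes per list with the largest mean absolute log2 on both arrays, the 2 nearest genes of each member, and all measured family genes, the last without regard to their values. Calculations used Python 3.11.15 with pandas 2.3.3, and recovery of known shifts was tested on simulated data.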

Additional observations from a re-analysis of the deposited data

Results flagged for a closer look

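Among the genes of the lists, 3 stood at least 1.5-fold from 0 on opposite sides at the 2 times, and none of these differences was tested. Egr1, an early transcription factor of the ERK output list, stood at 0.67 at 6 h and -1.81 at 12 h on 1 spot, a 12 h minus 6 h difference of -2.49. Kdr, a VEGF receptor on the endothelial marker list, stood at 1.76 and -0.65 on 2 spots, a difference of -2.41, and its spots at 6 h had an SD of 2.62. Srf, the serum response factor that drives many early genes together with ETS partners, stood at 0.69 and -0.75 on 1 spot, a difference of -1.44. Egr1 and Kdr were chosen after their values were seen. None of Dusp10, Dusp14 and Dusp16 met that criterion.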

How the results depend on the processing

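Each of Dusp10, Dusp14 and Dusp16 kept its sign at 6 h under every setting that gave it a value. These were no centring, the mean of spots, print blocks centred and spots of several symbols kept. The others were arrays brought to the same median absolute deviation and spots on both arrays only. Each gene had 1 spot at 6 h, so the mean of spots and the rescaling could not change a sign. Keeping spots of several symbols could change Dusp14 alone. Across all these settings, Dusp14 at 6 h ran between 0.93 and 1.41, Dusp10 between 0.51 and 0.94 and Dusp16 between -2.84 and -2.36. At 12 h Dusp10, at 0.01, turned to -0.47 without centring and to -0.05 with spots on both arrays, while Dusp14 ran between 0.025 and 0.62. The count of members at least 2-fold higher at 6 h, 1 in all, was 0 without centring, 2 at a 1.5-fold threshold and 0 at a 3-fold threshold. The count at least 2-fold lower at 12 h, also 1, was 0 at 3-fold and 0 with spots on both arrays, where Dusp16 loses its second spot. With at least 2 spots per gene, Dusp16 alone was left at 12 h, so the median of the members was -1.24, and no member was left at 6 h. Without centring, the share of higher genes among all named genes past 2-fold was 7.82% at 6 h and 16.5% at 12 h, beside 24.7% and 41.4% with it. No paired analysis was possible because there was 1 array per time point. The lack of a second array and of spot brightness limits every value.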
